A study of Mus musculus with 4 samples.

Results

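The collagen gene family was described in mouse caecal tissue, over 4 Affymetrix arrays. Members were all genes whose symbol has the form Col, a number, a and a number, named by a probe set with 1 gene symbol. The annotation gave 47 such probe sets for 44 genes, out of 22180 genes with a probe set of their own, and each gene is given by its brightest probe set, by the mean of the 4 arrays. Membership follows from the symbols alone. By structure, 11 were fibrillar collagens, 6 were the type IV chains of basement membranes and 27 were other collagens.

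Each array held RNA pooled from 6 mice, so each group is 1 sample. The labels give C57Bl/6 mice aged 21 weeks, and every group, controls included, ate a diet depleted of n-3 PUFA (omega-3 polyunsaturated fatty acids). The groups were WT, WT with prebiotics, apoE KO and apoE KO with prebiotics; the prebiotic was Orafti P95, 250 mg daily for each mouse in the final 15 days. Mice entered a pool by their RNA quality, and labelling started from 100 ng. apoE KO mice lack apolipoprotein E, a carrier protein of blood lipids; the allele is not described further.

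For both WT arrays the title, source and treatment fields name one diet and the description names the opposite one. The WT arrays are called by their titles here. Prebiotic differences of single genes that include them, and the calls of collagens, were also computed with the WT arrays exchanged. Shares of all genes were counted by title only. The KO pair, and the comparison of genotypes without a diet term, do not depend on that conflict. Apoe read 3.90 and 4.09 on the WT arrays and 2.83 and 3.13 on the KO arrays (log2). Of the markers checked, 12 of 12 epithelial and 12 of 12 smooth muscle genes passed the expression filter. Markers of fat passed in 6 of 8 cases (not Adipoq and Lep), and those of the mesothelium, the outer lining of the gut, in 3 of 6 (not Msln, Wt1 and Lrrn4).

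Collagens are secreted proteins of 3 chains wound into a triple helix. Fibrillar collagens assemble into the fibrils that give the gut wall its tensile strength and are made mainly by fibroblasts and smooth muscle cells. Type IV collagens form the sheet-like network under the epithelium and around vessels and muscle. The other collagens decorate fibrils, form beaded filaments, anchor basement membranes or cross the cell membrane.

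Values are log2 RMA values, given in the order WT, WT titled with prebiotics, KO and KO with prebiotics, and a difference of 1 is a 2-fold change. A probe set's level depends on its own probes, so levels are compared between arrays and never between genes. A gene was tested if it reached the array's median over probe sets with 1 symbol, between 2.99 and 3.01, on at least 1 array. Of the 44 collagens, 28 passed: 7 fibrillar, 4 basement membrane and 17 other. They passed on all 4 arrays in 15 cases, where values lay from the array median up to 7.48. The 13 collagens that passed on only some arrays lay between 2.69 and 3.46, and their differences within a pair lay between -0.43 and 0.43.

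The 16 collagens that did not pass had values between 2.57 and 2.98 and pair differences between -0.17 and 0.30. They were the fibrillar Col2a1, Col11a1, Col11a2 and Col24a1 and the basement membrane Col4a3 and Col4a4. The others were Col7a1, Col9a1, Col9a3, Col10a1, Col16a1, Col17a1, Col19a1, Col22a1, Col25a1 and Col28a1. Several are known from cartilage (types II, IX, X and XI), skin (types VII and XVII) or kidney and lung basement membranes (Col4a3 and Col4a4). In pooled tissue, fewer cells of a type and less RNA per cell cannot be told apart.

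**Figure D1:**
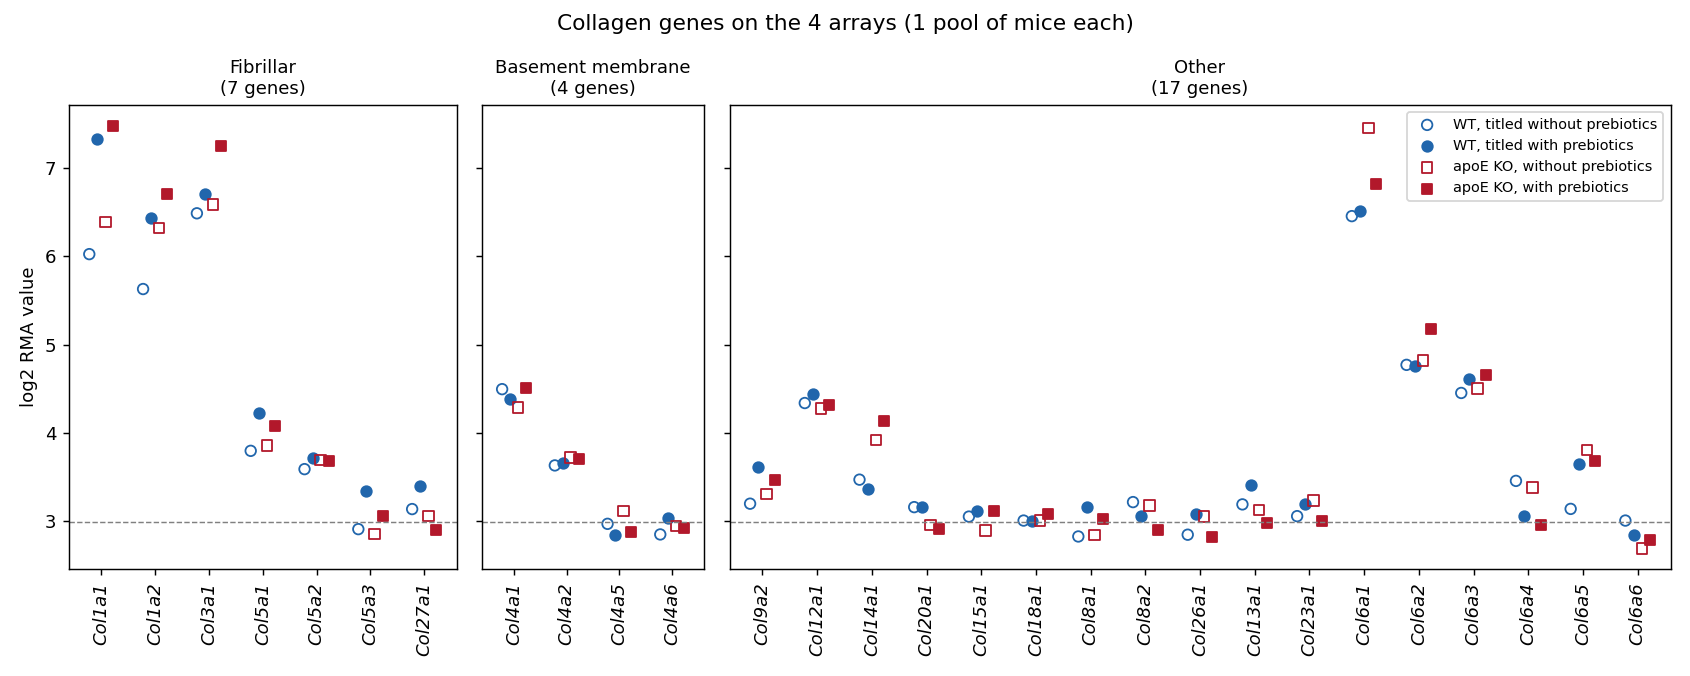
Log2 RMA value (vertical axis) of each of the 28 collagens that passed the filter (horizontal axis), 1 marker per array, in panels for 7 fibrillar, 4 basement membrane and 17 other collagens; the dashed line is the lowest array median, 2.99. Col1a1 and Col1a2 are lowest on the WT array titled without prebiotics, and Col6a1 is highest on the KO array without prebiotics at 7.45. The 13 genes that passed on only some arrays lie close to the dashed line, as does Col23a1.

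The RefSeq table of promoters (GRCm38.p6) held an entry for 35 of the 44 collagens and 23 of the 28 that passed, but not for Col1a1 or Col14a1. Printed are the 250 bases before the transcription start, 5′ to 3′ on the gene's strand. Col1a2, Col3a1, Col5a1 and Col5a3 are shown because they are the fibrillar members with an entry that stood higher on both prebiotic arrays than on both others. Col6a1 is shown because it had the largest genotype difference of the family. Capitals mark a CCAAT box (CCAAT or ATTGG), a GC box (GGGCGG or CCGCCC) or a TATA box (TATAAA or TTTATA), each searched on both strands.
Col1a2, chr6:4505368-4505617, plus strand: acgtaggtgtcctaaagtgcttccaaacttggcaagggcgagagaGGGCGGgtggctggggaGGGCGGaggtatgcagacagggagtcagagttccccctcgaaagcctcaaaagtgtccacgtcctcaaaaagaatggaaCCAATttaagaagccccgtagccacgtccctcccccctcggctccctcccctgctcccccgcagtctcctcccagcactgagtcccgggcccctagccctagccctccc
Col3a1, chr1:45311288-45311537, plus strand: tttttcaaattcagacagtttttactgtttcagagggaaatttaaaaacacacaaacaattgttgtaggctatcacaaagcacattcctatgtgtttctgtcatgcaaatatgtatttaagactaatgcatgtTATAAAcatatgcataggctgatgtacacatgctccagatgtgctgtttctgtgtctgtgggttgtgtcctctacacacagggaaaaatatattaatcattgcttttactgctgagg
Col5a1, chr2:27886175-27886424, plus strand: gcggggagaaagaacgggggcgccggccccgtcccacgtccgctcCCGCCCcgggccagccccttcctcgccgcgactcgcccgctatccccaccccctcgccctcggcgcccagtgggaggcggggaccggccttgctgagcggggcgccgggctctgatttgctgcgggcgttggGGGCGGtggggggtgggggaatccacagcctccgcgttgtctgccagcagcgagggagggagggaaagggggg
Col5a3, chr9:20815068-20815317, minus strand: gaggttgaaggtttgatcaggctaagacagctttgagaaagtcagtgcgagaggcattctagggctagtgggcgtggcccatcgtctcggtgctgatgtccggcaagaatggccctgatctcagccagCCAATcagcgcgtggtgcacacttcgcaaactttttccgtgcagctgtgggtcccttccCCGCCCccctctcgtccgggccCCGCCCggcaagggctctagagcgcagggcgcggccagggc
Col6a1, chr10:76726045-76726294, minus strand: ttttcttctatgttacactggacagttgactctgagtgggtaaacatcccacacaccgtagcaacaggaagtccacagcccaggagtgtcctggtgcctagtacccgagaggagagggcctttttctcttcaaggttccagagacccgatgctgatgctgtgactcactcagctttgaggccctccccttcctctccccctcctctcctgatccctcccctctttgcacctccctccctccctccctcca

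These 5 windows differ in makeup. G and C made up 62.0% of the bases for Col1a2, 35.2% for Col3a1, 76.4% for Col5a1, 62.8% for Col5a3 and 56.0% for Col6a1. Col1a2 and Col5a3 each held a CCAAT box and 2 GC boxes, Col5a1 held 2 GC boxes and Col3a1 held a TATA box. Over the 23 collagens that passed and had a window, 7 held a CCAAT box, 16 a GC box and 2 a TATA box. A collagen with more than 1 window, Col18a1 or Col6a2, was counted if any of them held the motif. The shares of all windows count each window by itself, so the measures are not quite alike. Of all 32851 RefSeq windows of the same length, 33.8% held a CCAAT box, 32.7% a GC box and 12.4% a TATA box. Col3a1 and Col13a1 were the 2 with a TATA box. The Smad box (CAGAC or GTCTG), the short motif bound by the TGF-beta transducers, stood in 12 of the 23 and in 42.2% of all windows. The AP-1 site (TGANTCA) stood in 1 of the 23, that of Col6a1, and in 6.75% of all windows. A motif match is a description of letters, not evidence of binding.

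For genotype, no collagen was called higher or lower in apoE KO than in WT at an adjusted p under 0.05 (limma, 2 arrays against 2, 28 collagens tested), and 0% of all 13083 genes were called in either direction. The lowest adjusted p of a collagen was 0.999. Over the alternatives it was 0.31, for Col14a1 with diet as a block and WT by title, and with the WT arrays exchanged the same block gave 0.9997. At an unadjusted p under 0.05, 2 of the 28 passed, Col6a1 and Col14a1, against 3.29% of all genes. Both KO arrays stood above both WT arrays for 6 of 28 collagens, against 16.2% of all genes, and below both for 5 of 28, against 14.0%. The KO mean was above the WT mean for 12 of 28 (52.9% of all genes). The median difference over the 28 was -0.01, and over all genes it was 0.01.

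Among the 7 fibrillar collagens, 0 had both KO arrays above both WT arrays and 1, Col27a1, had both below, against 16.2% and 14.0% of all genes. Col1a1, a chain of the most abundant fibril of connective tissue, read 6.02, 7.32, 6.39 and 7.48. Its arrays sorted by diet as titled and not by genotype, with a KO minus WT difference of 0.26 (SE 0.46) that ranged from -0.39 to 0.91 as single arrays were left out. Col1a2, the partner chain of the same fibril, read 5.63, 6.44, 6.32 and 6.70, a genotype difference of 0.48 (SE 0.27). Only the WT array titled without prebiotics was low for Col1a2, and without it the difference was 0.074; without the other WT array it was 0.88.

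Col3a1, the chain of the reticular fibrils in extensible tissue, read 6.48, 6.70, 6.59 and 7.24. The KO array with prebiotics was high and the other 3 lay close together, so the genotype difference of 0.32 (SE 0.22) was -0.0064 without that array and 0.65 without the other KO array. Among the type V chains, which start type I fibrils and limit their width, Col5a1 read 3.80, 4.22, 3.86 and 4.08, Col5a2 3.59, 3.72, 3.70 and 3.68, and Col5a3 2.91, 3.34, 2.86 and 3.06. Their genotype differences were -0.04, 0.03 and -0.17, and none separated the genotypes. Col27a1, a fibrillar chain best known from cartilage, read 3.14, 3.40, 3.06 and 2.90, with both KO arrays below both WT arrays and a difference of -0.29 (SE 0.15). The median over the 7 fibrillar collagens was 0.03.

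Basement membrane collagens were flat across genotypes, with a median difference of 0.03 over 4 genes. Col4a1 and Col4a2 encode the chains of the network found in nearly every basement membrane. Col4a1 read 4.50, 4.39, 4.29 and 4.51, and its genotype difference was -0.04 (SE 0.15). Col4a2 read 3.63, 3.66, 3.72 and 3.71, the 1 type IV chain with both KO arrays above both WT arrays, by 0.07 (SE 0.13). Col4a5, at 2.97, 2.84, 3.12 and 2.87, and Col4a6, at 2.85, 3.04, 2.95 and 2.93, encode chains found in basement membranes of smooth muscle among others. Both reached the array median on 1 array only, with genotype differences of 0.09 and -0.0061.

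Among the other collagens, type VI had 3 of its 6 chains with both KO arrays above both WT arrays and 1, Col6a6, with both below, against 16.2% and 14.0% of all genes. Type VI collagen forms beaded filaments next to cells and basement membranes. Col6a1, a chain common to its main assembly, read 6.45, 6.51, 7.45 and 6.81. Both KO arrays were above both WT arrays, and the KO array without prebiotics was highest. The difference was 0.65 (SE 0.21, 1.57-fold), with an adjusted p of 0.999 in limma and an unadjusted p of 0.017. It was 0.33 without the KO array without prebiotics, 0.97 without the KO array with prebiotics and 0.32 as the mean over both probe sets of the gene. The second Col6a1 probe set read 2.82, 2.78, 2.75 and 2.82, below the array median, and showed no such difference. A further probe set that names Col6a1 together with Rps21, Gm5963 and Gm19810 was not used. It read 4.50, 4.65, 4.86 and 4.34, and the genotypes overlapped on it.

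Col6a2, which lies next to Col6a1 on the chromosome and encodes the next chain of the same molecule, read 4.77, 4.75, 4.82 and 5.17. Its KO arrays were also both higher, by 0.24 (SE 0.16), but here the KO array with prebiotics was highest, and without it the difference was 0.060. Col6a3, the long chain of the molecule, read 4.45, 4.61, 4.50 and 4.66, and the genotypes overlapped (0.05). The remaining type VI chains, Col6a4, Col6a5 and Col6a6, are encoded side by side and are alternatives to the Col6a3 chain. Col6a5 read 3.14, 3.65, 3.81 and 3.68, a genotype difference of 0.35 (SE 0.19) with the WT array titled without prebiotics well below the others; without that array it was 0.096, and without the other WT array 0.60. Col6a6 read 3.01, 2.84, 2.69 and 2.79, with both KO arrays lower, and Col6a4 read 3.46, 3.06, 3.39 and 2.95, which sorted by diet as titled.

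The FACIT collagens sit on the surface of fibrils. Col14a1, a FACIT chain that interacts with decorin on fibrils, read 3.47, 3.36, 3.92 and 4.14. Both KO arrays were higher, by 0.61 (SE 0.15, 1.53-fold), with an unadjusted p of 0.004 and an adjusted p of 0.999 in limma. Leaving out any 1 array gave 0.50 to 0.72, and the adjusted p with diet as a block was 0.31 by title and 0.9997 with the WT arrays exchanged. Its close relative Col12a1 read 4.34, 4.44, 4.28 and 4.31, slightly lower on both KO arrays (-0.09). Col20a1 read 3.16, 3.16, 2.96 and 2.92, also lower on both KO arrays (-0.22), and Col9a2, a chain known from cartilage, read 3.20, 3.61, 3.31 and 3.47 (-0.02).

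Collagens of the remaining classes stayed close to the array median. The multiplexins Col15a1 and Col18a1, which carry heparan or chondroitin sulphate chains in basement membrane zones, differed by -0.08 and 0.04. Col8a1 and Col8a2, the network chains known from vessel walls and cornea, differed by -0.06 and -0.10. The transmembrane Col13a1 read 3.19, 3.41, 3.13 and 2.98, lower on both KO arrays by 0.25 (SE 0.14; KO minus WT -0.25), and Col23a1 differed by -0.0066. Col26a1 differed by -0.03. The median over the 17 other collagens was -0.03, and over the 6 type VI chains alone it was 0.14.

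**Figure D2:**
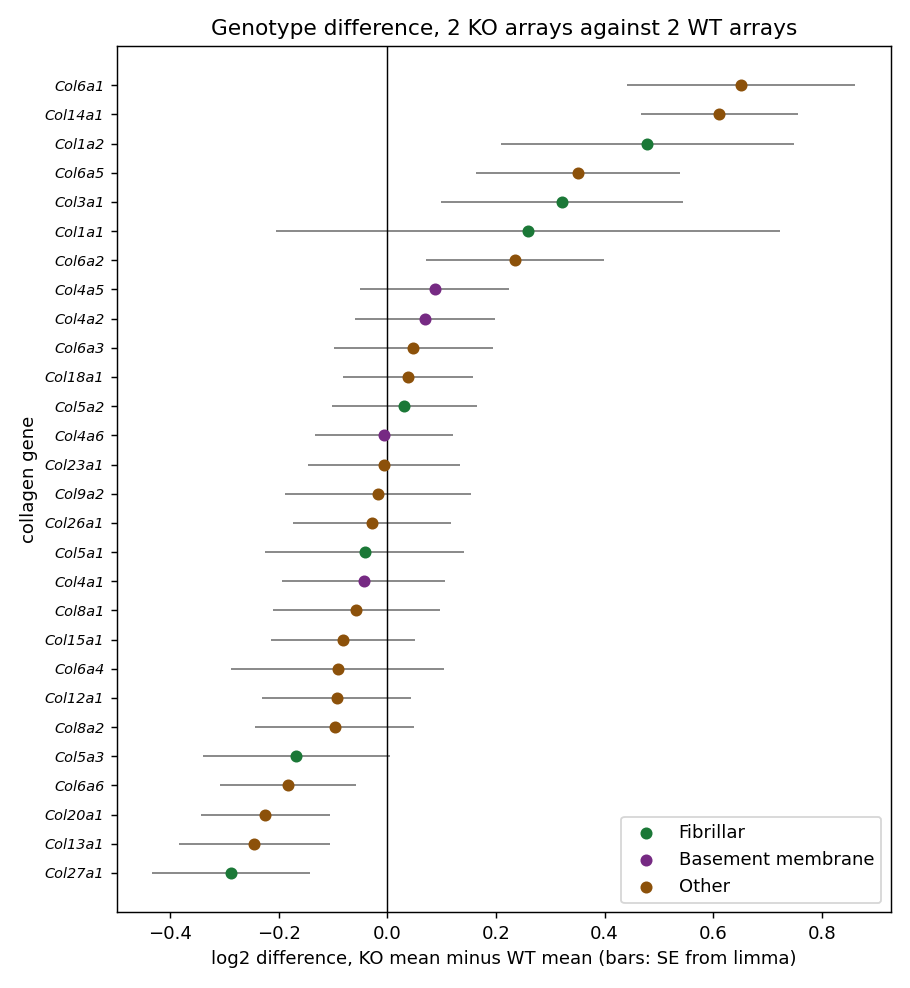
KO minus WT difference (log2, horizontal axis) of each of the 28 collagens that passed the filter, with its standard error from limma as a bar (2 arrays against 2), sorted by size, with classes in colour. Col6a1 at 0.65 and Col14a1 at 0.61 lie farthest to the right, and the fibrillar collagens lie on both sides of 0.

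Prebiotics in apoE KO were compared on 1 array against 1 array, so no test was possible. Differences past 1.5-fold were counted. Col1a1 was 1.09 higher on the log2 scale with prebiotics (2.13-fold) and Col3a1 0.66 higher (1.58-fold), which makes 2 of 28 collagens, against 2.45% of all genes. Col6a1 was the 1 collagen lower past that threshold, with a difference of -0.63, against 1.08% of all genes. A positive difference was seen for 15 of 28 collagens (55.8% of all genes), among them 5 of 7 fibrillar, 1 of 4 basement membrane and 9 of 17 other collagens. The medians were 0.22 for fibrillar, -0.02 for basement membrane and 0.04 for other collagens, beside 0.03 for all genes. Next in size were Col1a2 at 0.38, Col6a2 at 0.35 and, on the lower side, Col6a4 at -0.43.

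In the WT pair, as titled, Col1a1 was 2.46-fold and Col1a2 1.75-fold higher on the array with prebiotics, 2 of 28 collagens past 1.5-fold against 1.94% of all genes. No collagen was lower past that threshold (1.04% of all genes). All 7 fibrillar collagens were above 0, as were 2 of 4 basement membrane and 11 of 17 other collagens, 20 of 28 in all (53.1% of all genes). The medians were 0.43, -0.04 and 0.06 for the 3 classes in that order, beside 0.02 for all genes. With the WT arrays exchanged, as their descriptions have them, each of these differences takes the opposite sign: the count becomes 0 higher and 2 lower, and the fibrillar median -0.43.

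Over both genotypes, with the WT arrays by title, both prebiotic arrays stood above both others for 9 of 28 collagens, against 25.5% of all genes. These were Col1a1, Col1a2, Col3a1, Col5a1 and Col5a3 among the fibrillar collagens, and Col6a3, Col8a1, Col9a2 and Col15a1 among the others. This was 5 of 7 fibrillar, 0 of 4 basement membrane and 4 of 17 other collagens. Both prebiotic arrays stood below both others for Col4a5, Col6a4 and Col8a2, 3 of 28 against 17.4%. With the WT arrays exchanged, the first count was 1 for all collagens and 0 for the fibrillar ones. The shares of all genes given here are for the titles, and no share was counted with the WT arrays exchanged.

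In limma with genotype and prebiotic terms (1 residual degree of freedom), 1 collagen was called higher with prebiotics, Col1a1, against 0.994% of all genes, and 0 were called lower, against 0.260%. At an unadjusted p under 0.05, 6 of 28 passed (13.8% of all genes): Col1a1, Col1a2, Col3a1, Col5a1, Col5a3 and Col6a4. Col1a1 rose by 1.19 (SE 0.12, adjusted p 0.0018), and its adjusted p lay between 5.8e-05 and 0.026 over the alternatives that keep the titles. The differences of the others were 0.60 for Col1a2 (SE 0.14, adjusted p 0.084), 0.44 for Col3a1 (SE 0.13, adjusted p 0.17), 0.32 for Col5a1 and 0.31 for Col5a3. Col6a4 differed by -0.41 (SE 0.13, adjusted p 0.19). With the WT arrays exchanged, Col1a1 was at -0.10 and Col1a2 at -0.21, with adjusted p of 1.0 in limma, and 0 collagens were called. Col3a1 kept a positive difference, 0.22. How many of all genes were called with the WT arrays exchanged was not counted. Whether the loss of calls is particular to collagens is therefore not known.

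The second probe set of Col1a2 read 2.89, 2.76, 2.90 and 3.05 and that of Col5a1 2.85, 2.86, 2.84 and 2.70. Both lie near or below the array median and did not show the order seen on the brighter probe set. Col1a1 and Col3a1 have 1 probe set each.

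**Figure D3:**
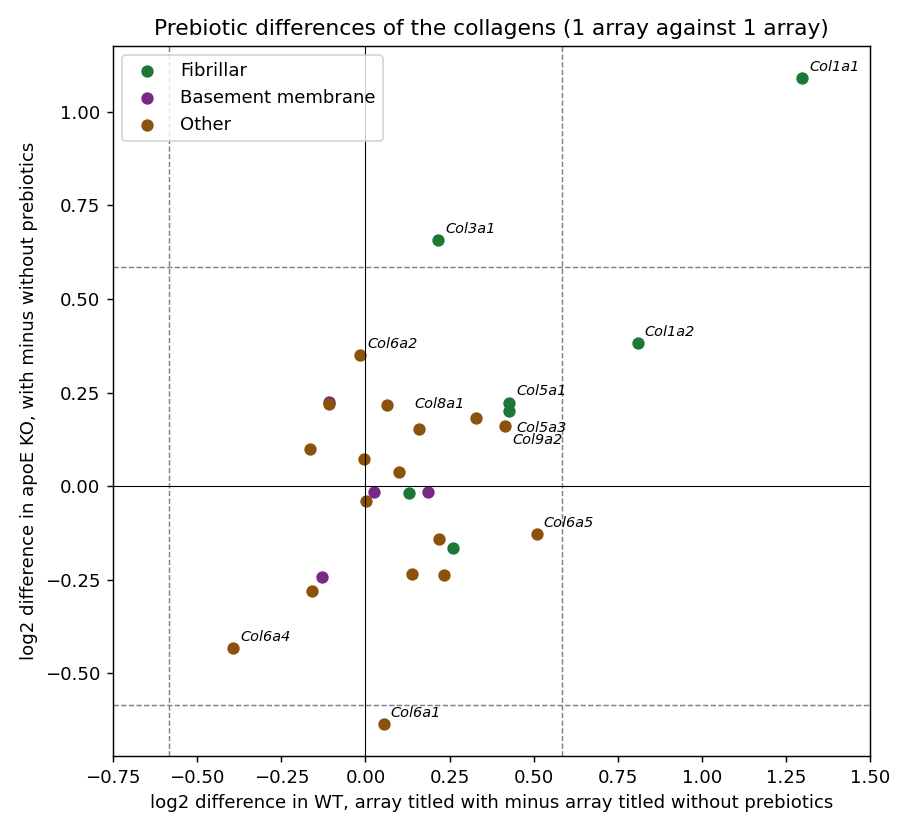
Difference with minus without prebiotics (log2) in WT by title (horizontal axis) and in apoE KO (vertical axis), 1 point per collagen, 1 array against 1 array each; dashed lines mark 1.5-fold. Col1a1 lies past 1.5-fold on both axes, Col3a1 only on the KO axis, Col1a2 only on the WT axis, and exchanging the WT arrays mirrors the points left to right.

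Neighbouring collagen genes did not always share an order of arrays. No protein-coding gene lies between Col3a1 and Col5a2, Col6a1 and Col6a2, Col4a1 and Col4a2, Col4a5 and Col4a6, or along Col6a4, Col6a5 and Col6a6, in RefSeq's GRCm38.p6 order. Col4a1 and Col4a2 start 21 bases apart on opposite strands. Their KO pair differences were 0.22 and -0.01, and their WT pair differences -0.11 and 0.03. Col3a1 and Col5a2 differed by 0.66 and -0.02 in the KO pair and by 0.22 and 0.13 in the WT pair. Col6a1 and Col6a2 went opposite ways in the KO pair, at -0.63 and 0.35.

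The genes that make, process and bind collagen were counted on lists for each step. For genotype no gene on any of them was called, as for all genes. Of 18 measured genes that modify and fold the chains, 12 had a higher KO mean and the median was 0.07. Plod2 and P4ha1, which hydroxylate lysine and proline, differed by 0.36 and 0.35, and Creb3l1, a transcription factor of secretory matrix genes, by -0.36. Of 7 genes for propeptide removal and cross-linking, 5 had a higher KO mean (median 0.08). The cross-linking oxidase Loxl1 differed by 0.35 and the procollagen C-proteinase Bmp1 by -0.20; Lox did not pass the filter.

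Of 8 genes for degradation and its inhibitors, 6 had a higher KO mean (median 0.19). Mmp2, a gelatinase, read 5.89, 6.51, 6.93 and 6.62, higher on both KO arrays by 0.58 (SE 0.22). The inhibitor Timp3 differed by 0.43 and the stromelysin Mmp10 by -0.44. Of 7 collagen receptors, 3 had a higher KO mean (median -0.04), with the fibrillar collagen receptor tyrosine kinase Ddr2 at 0.41. The platelet collagen receptor Gp6 differed by -0.19 and Ddr1, the epithelial relative of Ddr2, by -0.13. The TGF-beta pathway, a main inducer of collagen genes, had 8 of 12 genes with a higher KO mean (median 0.07), with Smad3 at 0.19 and the target Ccn2 at -0.25.

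Proteins that sit on collagen fibrils had a larger median genotype difference than the fibrillar chains, 0.44 against 0.03. These medians were not tested against each other. The fibrillar median depends on the filter: at the 75th percentile it was 0.32, and the median of the partners was not computed there. Of 16 fibril partners, 14 had a higher KO mean (52.9% of all genes), and 9 had both KO arrays above both WT arrays (16.2% of all genes). Dcn, Dpt and Lum of this list are also fibroblast markers. Ogn, a small leucine-rich proteoglycan, read 6.15, 5.29, 6.85 and 6.49, a difference of 0.95 (SE 0.28). Dcn, decorin, which coats type I fibrils, read 7.77, 8.03, 8.60 and 8.73, a difference of 0.77 (SE 0.14). Both had adjusted p of 0.999 in limma. For basement membrane partners, 9 of 14 had a higher KO mean (median 0.14), with the laminin chain Lama2 at 0.42 and the epithelial chain Lama3 at -0.45.

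For prebiotics over both genotypes, 1 of the 82 measured genes of these lists was called higher, Bgn, against 0.994% of all genes, and 0 were called lower, against 0.260%. Bgn, biglycan, a proteoglycan bound to type I fibrils, read 8.71, 9.34, 9.11 and 9.59. Both prebiotic arrays were above both others, and Bgn rose by 0.55 (SE 0.08, adjusted p 0.012 in limma); with the WT arrays exchanged the difference was -0.07. Fibronectin, Fn1, on whose matrix collagen fibrils assemble, read 7.79, 8.07, 8.23 and 8.79, a difference of 0.42 (adjusted p 0.092). Larger than that of Fn1 were also the differences of Mmp10 at 0.58, Ddr1 at 0.48 and the basement membrane partner Agrn at 0.43, none of them called. Ogn differed by -0.61 and tenascin C, Tnc, by -0.40. With the WT arrays exchanged, Fn1 was at 0.14, Ogn at 0.25 and Tnc at 0.04. Mmp10 was then at -0.24, Ddr1 at -0.15 and Agrn at 0.08. Of the modifying enzymes, the collagen galactosyltransferase Colgalt1 read 5.09, 4.88, 5.52 and 4.78. By title it was lower on both prebiotic arrays (-0.48, adjusted p 0.20 in limma), and with the WT arrays exchanged it was at -0.26. Serpinh1, the collagen chaperone HSP47, named after its values were seen, read 4.20, 3.77, 3.92 and 4.41: it was higher with prebiotics in KO and lower in WT by title. With the WT arrays exchanged it was higher with prebiotics in both genotypes, by 0.46.

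Markers of collagen-making and other cells were summed on the linear scale per array, so the brightest probe sets weigh most. The fibroblast sum, without any collagen, was 829 and 838 on the WT arrays and 1204 and 1090 on the KO arrays, a ratio of 1.38 for KO over WT, and 12 of 12 markers had a higher KO mean. The smooth muscle sum was 4744 and 3951 in WT and 5694 and 5082 in KO, a ratio of 1.24, again with 12 of 12 higher. The pericyte sum gave a ratio of 1.27, with 4 of 6 markers higher, the macrophage sum 1.28, with 9 of 10, the endothelial sum 1.07, with 7 of 12, and the epithelial sum 1.03, with 3 of 12. Medians of the single markers' log2 genotype differences were 0.20 for fibroblasts, 0.32 for smooth muscle and 0.315 for pericytes. For macrophages the median was 0.24, for endothelium 0.03 and for epithelium -0.03. These sums move with genotype beside Col6a1 and Col14a1, and their part in those differences was not tested.

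Beside the prebiotic differences, the fibroblast sum had a ratio of 0.905 in the KO pair and 1.01 in the WT pair by title. Single fibroblast markers were above 0 in 7 of 12 cases (median 0.10) in the KO pair and in 9 of 12 (median 0.06) in the WT pair. Pdgfra, picked out after its values were seen, had the largest negative difference in linear level in the KO pair, with 8.24 without and 7.54 with prebiotics on the log2 scale. The smooth muscle sum was lower on the array with prebiotics in both pairs (0.892 and 0.833), as was the pericyte sum (0.906 and 0.783). The macrophage sum had ratios of 0.991 and 1.35, the epithelial sum 1.07 and 1.04, the endothelial sum 0.786 and 1.02, and the adipocyte sum 0.654 and 0.554. The part of these sums in the prebiotic differences was not tested. The enteric neuron and glia sum (S100b and Elavl4 did not pass) lay between 44.5 and 49.2 and the mesothelial sum between 44.2 and 47.8 on the 4 arrays.

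**Figure D4:**
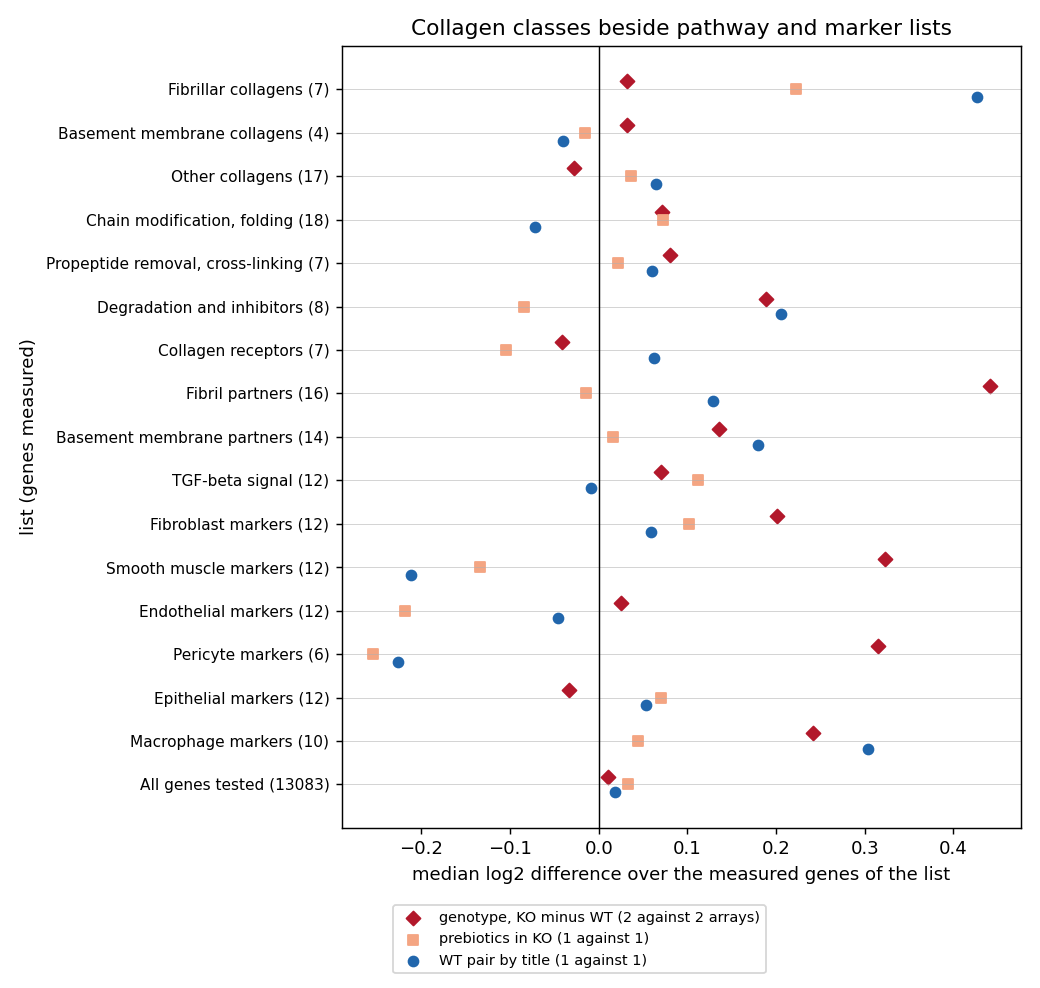
Median log2 difference over the measured genes of each list (number in brackets): KO minus WT over 2 against 2 arrays, and the prebiotic difference in KO and in the WT pair by title, 1 array against 1 each. Fibril partners lie farthest right for genotype at 0.44, while fibrillar collagens lie at 0.03 for genotype and at 0.22 and 0.43 for the KO and WT pairs. With the filter at the 75th percentile, not drawn, the fibrillar genotype median was 0.32.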

How the data were processed

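Gene expression was measured on 4 Affymetrix arrays, each of RNA pooled from 6 mice. The deposited values are log2 values, made by the authors with Affymetrix Expression Console and RMA, per the submitters' processing notes; no version or setting was given in the sources used here. RMA compresses differences close to background. The annotation gave 1 symbol for 23521 of 41345 probe sets, several for 1814 and none for 16010. Single-symbol probe sets named the genes, the brightest per gene was used, and 13083 genes passed the filter and were tested in limma 3.58.1 under R 4.3.3 (lmFit, eBayes with trend, two-sided, Benjamini-Hochberg over all 13083). The genotype fit had 2 residual degrees of freedom and holds diet in its error; the prebiotic fit had 1. The p-values and SEs measure only spread between these pools, and eBayes draws each gene's variance towards a trend over all genes tested. With so few residual degrees of freedom they do not measure a gene's own spread alone, and the number of arrays limits the precision. Tests were also run on simulated data whose noise came from the fit with both terms. For genotype no diet effect was simulated, so that run cannot show how the genotype test does with diet in its error. The family and the lists were chosen with earlier results of these data known, while membership of the family rests on symbols alone. All collagens that passed are given. Of each pathway list, up to 2 genes with the largest genotype difference each way are named. Alternatives changed the filter, the probe-set rule, the scaling, the trend, the diet block, the WT diets, the fold threshold, the basement membrane class and, 1 at a time, the arrays. Protein sequences were not used here.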

Additional observations from a re-analysis of the deposited data

Results flagged for a closer look

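With WT by title, the prebiotic difference had opposite signs in the genotypes for 15 of 28 collagens, and in 2 of them the gap was 1.5-fold or more. No share of all genes was counted for either, so neither count is a result about collagens. Some of the 15 lay near 0, such as Col4a2 at -0.01 in apoE KO and 0.03 in WT. Col6a1 differed by -0.63 in apoE KO and 0.05 in WT, a gap of -0.69, and Col6a5 by -0.13 and 0.51, a gap of -0.64. These gaps were not tested, since each pair is 1 array against 1 array, and with the WT arrays exchanged both genes would be lower with prebiotics in both genotypes.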

How the results depend on the processing

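No paired analysis was possible because each group is 1 pooled sample and the labels give no replicate numbers that could pair pools. Diet as a block was fitted instead for genotype: the lowest adjusted p of a collagen in limma was 0.31 by title and 0.9997 with the WT arrays exchanged. No collagen was called for genotype in any alternative run. With the filter at the 75th percentile, the collagens with both KO arrays above both WT arrays went from 6 to 2, those with both prebiotic arrays above both others from 9 to 4 (fibrillar from 5 to 3) and those below from 3 to 0. With that filter the fibrillar medians were 0.32 for genotype, 0.66 in the KO pair, 0.81 in the WT pair and 0.60 over both genotypes; the medians of other collagens were 0.24, 0.15 (KO pair) and 0.16 (both genotypes), and that of basement membrane in the KO pair was 0.22 (0.10 with a filter on the mean). With no filter, 14 collagens stood above and 5 below on both prebiotic arrays, and the fibrillar medians were 0.24 in the WT pair and 0.18 over both genotypes. These filters test other numbers of genes, and with no filter all 44 collagens entered the counts. No share of all genes was counted under them, so whether these shifts are particular to collagens is not known. With the mean over probe sets, the KO pair had 0 collagens lower, the WT pair 1 higher and a fibrillar median of 0.26. At 2-fold, the KO pair had 1 higher and 0 lower and the WT pair 1 higher. With arrays centred on their median, 2 collagens were called higher with prebiotics, Col1a2 joining Col1a1. No share of all genes was counted with probe-set means, at 2-fold or with centred arrays, so these counts cannot be set beside all genes. Leaving out 1 array at a time gave 7 to 15 collagens above WT on the KO arrays and fibrillar genotype medians of -0.26 to 0.17. Fewer arrays make non-overlap easier to reach, and no share of all genes was counted there. The genotype difference of Col3a1 then ranged from -0.0064, without the KO array with prebiotics, to 0.65.

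With the WT arrays exchanged, the WT pair had 0 collagens higher and 2 lower, and 0 were called with prebiotics. The count above on both prebiotic arrays was 1 (0 fibrillar), with 1 fibrillar collagen below; the fibrillar medians were -0.43 in the WT pair and -0.10 over both genotypes, and that of other collagens in the WT pair -0.065. Col1a1 was at -1.30 and Col1a2 at -0.81 in the WT pair. Over both genotypes Col1a1 was at -0.10, Col1a2 at -0.21, Col5a1 at -0.10, Col5a3 at -0.11, Col9a2 at -0.13, Col8a1 at -0.074, Col6a3 at -0.0043 and Col6a5 at -0.32. Which WT diet label is right cannot be told apart here. The counts over both prebiotic arrays were added after seeing the data. With the WT arrays exchanged, no share of all genes was counted for them or for the calls. For changes that follow neither from fewer genes, fewer arrays nor an exchanged label, the cause was not tested. Values near the array median, as for 13 of the 28 collagens, give little room to see a difference.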
